A study of Mus musculus with 4 samples.

Results

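Heavy-chain variable segments (Ighv) were counted as separate genes in 4 bulk RNA-seq libraries of mouse bone marrow. They were taken from the deposited gene-level count table as every row whose symbol starts with Ighv, whose biotype is IG_V_gene (a germline segment annotated as able to encode a variable domain) and whose counts sum to 15 or more over the 4 libraries. Of 55399 genes in the table, 113 were Ighv rows of that biotype, and 98 reached the minimum. All 98 lie on the minus strand of chromosome 12 (mm10), from 113578504 to 116000461. The minimum was reached within each genotype alone by 89 of them and through the Ppm1bfl/fl libraries only by 9.

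The cells were labelled Lsk, the usual name for marrow cells sorted as Sca-1 and Kit positive without lineage markers, a fraction that holds stem cells and multipotent progenitors. The genotype was Ppm1bfl/fl (alleles flanked by loxP sites) in 2 libraries and Ppm1bCKO (conditional knockout) in 2 libraries. Cre line, strain, and the age and number of mice are not given in the sources used here. Nothing in the labels says that libraries of a genotype are from separate mice. The p-values therefore measure only the spread between these libraries, which may be technical.

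A heavy-chain variable domain is built during B cell development, when recombination joins 1 V segment to a D and a J segment upstream of the constant genes. Each B cell clone carries its own choice of V segment, and plasma cells, the antibody-secreting end stage, transcribe the rearranged gene at very high levels. Stem cells and multipotent progenitors have not rearranged the locus, although germline V transcripts exist in early B-lineage cells. Segments are numbered by subgroup, a family of related sequences, then by position from the D segments outward. Subgroup 1, also called J558, is the largest and fills most of the distal part of the locus.

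The coding sequences below show what the counts distinguish. Each is the last 240 bases of the V exon, 5′ to 3′ on the coding strand, from the GENCODE transcripts of the same build. Capitals run from the codon of the conserved cysteine, where the third complementarity-determining region begins, to the end of the segment, where D is joined. Ighv1-81 (chr12:115920279-115920518) had the highest mean level, Ighv9-3 (chr12:114140692-114140931) and Ighv3-6 (chr12:114288152-114288391) were the most abundant members of other subgroups, and Ighv1-71 (chr12:115742205-115742444) had the lowest log2 fold change. Ighv11-2 (chr12:114048241-114048480) and Ighv12-3 (chr12:114366521-114366760) were the tested members higher in both libraries labelled Ppm1bCKO than in both Ppm1bfl/fl libraries.
Ighv1-81: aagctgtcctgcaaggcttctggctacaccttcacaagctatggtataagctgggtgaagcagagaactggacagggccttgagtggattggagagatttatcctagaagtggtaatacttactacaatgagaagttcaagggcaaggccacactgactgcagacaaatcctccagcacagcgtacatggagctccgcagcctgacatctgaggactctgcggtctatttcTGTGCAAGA
Ighv9-3: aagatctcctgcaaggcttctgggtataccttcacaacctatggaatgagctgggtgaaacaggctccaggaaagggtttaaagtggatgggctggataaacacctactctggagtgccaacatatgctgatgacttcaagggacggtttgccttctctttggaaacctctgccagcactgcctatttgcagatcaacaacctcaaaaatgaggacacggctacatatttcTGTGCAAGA
Ighv3-6: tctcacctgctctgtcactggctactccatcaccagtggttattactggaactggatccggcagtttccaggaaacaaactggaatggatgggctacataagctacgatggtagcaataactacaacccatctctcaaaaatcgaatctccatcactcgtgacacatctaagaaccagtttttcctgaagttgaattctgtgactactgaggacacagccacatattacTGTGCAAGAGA
Ighv1-71: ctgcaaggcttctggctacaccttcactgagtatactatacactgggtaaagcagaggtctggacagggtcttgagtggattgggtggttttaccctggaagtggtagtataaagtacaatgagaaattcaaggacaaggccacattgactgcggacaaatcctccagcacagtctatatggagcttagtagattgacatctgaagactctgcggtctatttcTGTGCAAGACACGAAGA
Ighv11-2: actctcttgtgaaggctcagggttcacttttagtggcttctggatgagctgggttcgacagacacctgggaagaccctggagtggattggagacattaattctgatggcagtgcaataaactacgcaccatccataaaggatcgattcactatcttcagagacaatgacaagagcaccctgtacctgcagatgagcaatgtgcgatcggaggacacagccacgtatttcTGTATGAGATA
Ighv12-3: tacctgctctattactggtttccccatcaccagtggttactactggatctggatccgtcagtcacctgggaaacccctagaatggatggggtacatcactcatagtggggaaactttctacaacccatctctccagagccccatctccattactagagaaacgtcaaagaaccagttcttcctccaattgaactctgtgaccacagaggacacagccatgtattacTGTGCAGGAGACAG

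Members of a subgroup were alike and members of different subgroups were not. Over the coding part of the V exon the median identity was 85.6% within a subgroup (range 72.4 to 100%) and 60.7% between subgroups (at most 82.6%). Ighv1-81 and Ighv1-71 were 84.0% identical, and Ighv1-81 and Ighv3-6 were 57.0% identical. A cysteine codon near the end was found in 97 of the 98 segments, and 44 ended in the same 9 bases as Ighv1-81. The nearest relative was at least 95% identical for 55 segments, at least 98% for 13, and under 90% for 19.

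The treatment of reads that match several segments is not given in the sources used here, so the split of reads between close relatives is uncertain. The pair below shows what a near-identical relative looks like. Ighv1-72 (chr12:115757984-115758223) and Ighv1-62-3 (chr12:115460999-115461238) are 99.0% identical, and capitals mark the bases that differ within the last 240.
Ighv1-72: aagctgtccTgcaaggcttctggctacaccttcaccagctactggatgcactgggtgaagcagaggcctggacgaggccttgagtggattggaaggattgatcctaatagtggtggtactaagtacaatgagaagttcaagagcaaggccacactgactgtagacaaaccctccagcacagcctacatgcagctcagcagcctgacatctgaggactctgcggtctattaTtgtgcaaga
Ighv1-62-3: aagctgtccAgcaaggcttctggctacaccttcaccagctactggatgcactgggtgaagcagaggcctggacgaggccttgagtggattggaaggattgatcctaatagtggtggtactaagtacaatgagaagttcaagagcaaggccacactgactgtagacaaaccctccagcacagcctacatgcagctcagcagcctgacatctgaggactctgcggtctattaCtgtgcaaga

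Ighv1-72 and Ighv1-62-3 nevertheless differed widely in level. Ighv1-72 stood at 109 and 83.5 CPM (library-scaled counts, by the TMM method) in Ppm1bfl/fl replicates 1 and 2, and at 22.6 and 14.1 CPM in replicates 1 and 2 labelled Ppm1bCKO. Ighv1-62-3 stood at 1.05, 0.531, 0.132 and 0.295 CPM in the same order, which is used for every list of 4 values. Ighv1-71 and Ighv1-62-2 have identical V exons and differ by 1 base over 359 coding bases, so their counts were also summed. Together they stood at 18.3, 19.5, 2.42 and 1.18 CPM, a mean 10.5-fold higher in Ppm1bfl/fl, and the genotypes did not overlap.

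Total counts were 26002277, 30045382, 22393973 and 24856083, so that a count of 0 would allow up to 3 counts, or 0.0995 to 0.132 CPM on the TMM scale used below. Ppm1b, the gene named by the genotype, stood at 80.8, 82.5, 84.3 and 121 CPM, so it was not lower where the label was Ppm1bCKO. The log2 fold change was 0.33 ± 0.20 (SE; edgeR adjusted p = 0.717), and without Ppm1bCKO replicate 1 it was 0.56 (edgeR adjusted p = 0.0075) in a fit that called 1753 genes higher and 1583 lower. A gene-level count cannot show a deleted exon, so each direction below rests on the labels. All 11 LSK markers listed for the check, Kit and Ly6a among them, were detected, with a summed level of 381 to 575 CPM. The 9 markers of other mature marrow cells, such as Hbb-bs and S100a8, summed to 8034 to 18460 CPM.

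Transcripts of Ighv segments were less abundant in the libraries labelled Ppm1bCKO. The 98 segments held 115156 and 96314 counts in Ppm1bfl/fl and 29012 and 24026 in the libraries labelled Ppm1bCKO. These were 0.443% (95% Wilson interval 0.440 to 0.445) and 0.321% (0.318 to 0.323) of all counts, against 0.130% (0.128 to 0.131) and 0.0967% (0.0954 to 0.0979). Both libraries labelled Ppm1bCKO were below both Ppm1bfl/fl libraries. Summed levels were 4327, 3194, 1276 and 1012 CPM, a mean 3.29-fold higher in Ppm1bfl/fl (two-sided exact permutation p = 0.333, the smallest that 2 against 2 libraries can give). The intervals cover counting error only: these reads carry no molecular identifiers and are not independent molecules. In bulk RNA, fewer cells of a type and less RNA per cell cannot be told apart.

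Of the 96 segments tested, 30 fell in the edgeR quasi-likelihood test adjusted over 16393 genes at 0.05, and 0 rose. Over all tested genes 0.311% were called lower and 0.061% higher. The log2 fold change was negative for 92 of the 96, where 50.4% of all tested genes had a negative one. Its median was -1.85, or 3.60-fold lower, with quartiles of -2.40 and -1.13, beside a median of -0.003 over all tested genes. At an unadjusted p at or under 0.05, 69 segments were lower and 0 higher (3.21% and 3.23% of all tested genes). DESeq2 called 52 lower and 0 higher (0.821% and 0.417% of all genes it adjusted). With limma-voom 24 were lower and 0 higher, where it called 43 lower and 8 higher over all tested genes. In 75 of the 96 both libraries labelled Ppm1bCKO were below both others, and in 2 both were above (20.6% of all tested genes in each direction). Segments were read from the same libraries and are not independent replicates of the difference. A lower value was also favoured by the choice for the 9 members that reached the minimum through Ppm1bfl/fl only. Those of them that were tested are not set apart in these counts. The count of called segments was 61 without Ppm1bfl/fl replicate 1 and 64 without replicate 2, and 41 and 27 without Ppm1bCKO replicates 1 and 2. Over all tested genes these fits called 110, 155, 1583 and 63 lower and 35, 59, 1753 and 31 higher, so a call without Ppm1bCKO replicate 1 was common among genes of any kind.

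**Figure D1:**
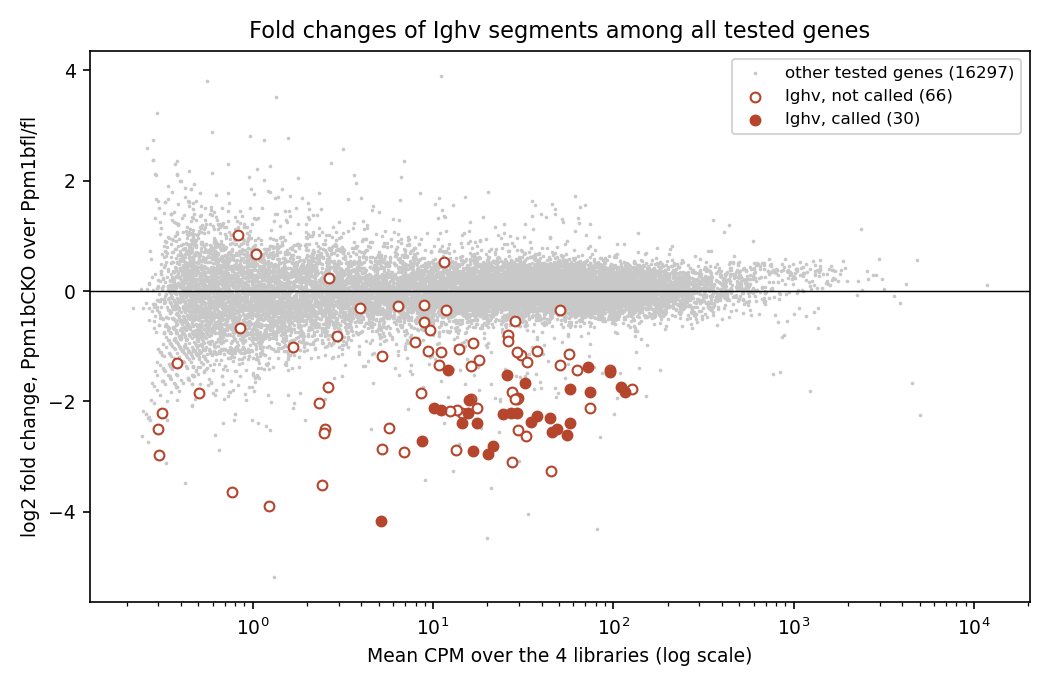
Mean CPM over the 4 libraries (x axis, log scale) against the log2 fold change of Ppm1bCKO over Ppm1bfl/fl (y axis) for every tested gene. Grey points are other genes, filled red points are the 30 Ighv segments called lower and open red points the 66 that were tested and not called. The segments lie below 0 at every level, apart from 4.

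Segments fell at high and at low levels alike, but more of the calls were among the abundant ones. Mean levels per kb of exon ran from 0.845 CPM per kb for Ighv8-4 to 363 for Ighv1-81, with a median of 42.7. Of the 49 segments with the higher levels 23 were called, and of the 49 with the lower levels 7 (0.311% of all tested genes). Across the 96 tested segments level and log2 fold change had a Spearman rho of -0.01, a description only, because all segments share the same libraries. Called segments were 2.59-fold to 18.0-fold lower, at edgeR adjusted p from 0.00766 to 0.0494.

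Ighv1-81, of the J558 subgroup, was the most abundant segment by length, at 260, 135, 62.9 and 52.3 CPM. Both libraries labelled Ppm1bCKO were lower than both others, and the Ppm1bfl/fl libraries lay far from each other. Its log2 fold change was -1.78 ± 0.29 and did not pass (edgeR adjusted p = 0.0629). It passed without either Ppm1bfl/fl library (-1.23 and -2.18, edgeR adjusted p = 0.0191 and 1.75e-09). Ighv3-6 stood at 210, 153, 50.3 and 51.7 CPM. The libraries of each genotype were close together and the genotypes apart, and Ighv3-6 fell by 1.83 ± 0.20 in log2 units (edgeR adjusted p = 0.0121, or 0.0559 without Ppm1bCKO replicate 2). Ighv9-3 stood at 184, 157, 45.6 and 57.0 CPM. It showed the same separation and fell by 1.73 ± 0.19 (edgeR adjusted p = 0.0121).

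The other segments among the 12 most abundant per kb were Ighv1-26, Ighv1-64, Ighv1-9, Ighv1-53, Ighv1-55, Ighv1-69, Ighv1-82, Ighv2-2 and Ighv1-15. Ighv1-26 stood at 150, 131, 52.9 and 48.9 CPM and fell by 1.46 ± 0.17 (edgeR adjusted p = 0.0141). Ighv1-9 stood at 101, 131, 38.8 and 26.9 CPM and fell by 1.82 ± 0.23 (edgeR adjusted p = 0.0179). Ighv1-69 stood at 105, 74.3, 26.2 and 25.9 CPM and fell by 1.78 ± 0.20 (edgeR adjusted p = 0.0141, or 0.149 without Ppm1bCKO replicate 2). In these the genotypes did not overlap. Ighv1-53 and Ighv1-15 also fell (edgeR adjusted p = 0.0461 for both). The call of Ighv1-15, at 63.2, 127, 19.6 and 11.6 CPM, was lost without Ppm1bCKO replicate 1 or 2 (edgeR adjusted p = 0.316 and 0.999).

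The remaining abundant segments did not pass, and in several of them the libraries labelled Ppm1bCKO differed among themselves. Ighv1-64 stood at 156, 124, 72.7 and 31.3 CPM (edgeR adjusted p = 0.391). Ighv1-55 stood at 141, 101, 39.8 and 15.8 CPM (edgeR adjusted p = 0.208). Ighv1-82 stood at 103, 80.9, 46.0 and 21.8 CPM (edgeR adjusted p = 0.225). In all of these both libraries labelled Ppm1bCKO lay below both others, with replicate 1 over 2-fold above replicate 2. Ighv1-64 and Ighv1-82 passed without any 1 of the 4 libraries (highest edgeR adjusted p = 0.0402 and 0.0410), and Ighv1-55 without either Ppm1bfl/fl library or Ppm1bCKO replicate 1 (highest edgeR adjusted p = 0.00351). Ighv2-2, a proximal segment, stood at 75.7, 81.1, 30.4 and 40.8 CPM (-1.14 ± 0.19, edgeR adjusted p = 0.0674) and passed without Ppm1bfl/fl replicate 1 and without either library labelled Ppm1bCKO (edgeR adjusted p = 0.0331, 0.000812 and 0.00046).

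The segments with the smallest p spanned low to high levels, Ighv3-6 and Ighv9-3 above among them. Ighv1-71 stood at 9.24, 10.2, 0.396 and 0.674 CPM and fell by 4.17 ± 0.35 in log2 terms (edgeR adjusted p = 0.00766). Its twin Ighv1-62-2 stood at 9.06, 9.28, 2.02 and 0.506 CPM and did not pass (-2.86 ± 0.51, edgeR adjusted p = 0.0867). Both libraries labelled Ppm1bCKO were under both others for each twin, and replicate 1 held more of Ighv1-62-2 than of Ighv1-71. Ighv1-62-2 and Ighv1-62-3 were chosen for their sequences after their values were seen. Ighv1-4, the subgroup 1 member nearest the D segments, stood at 41.4, 33.9, 4.44 and 6.32 CPM and fell by 2.80 ± 0.25 (edgeR adjusted p = 0.00766). Ighv2-9 stood at 30.8, 28.3, 5.10 and 6.11 CPM and fell by 2.40 ± 0.22 (edgeR adjusted p = 0.00766). Neither overlapped between genotypes. Ighv4-1, Ighv1-54, Ighv1-72, Ighv1-34 and Ighv1-84 fell by 2.12 to 2.71 on the log2 scale, at edgeR adjusted p of 0.0121 to 0.0126.

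The log2 fold change was positive for 4 tested members, none of which passed the test. Ighv11-2 stood at 11.6, 7.23, 15.2 and 12.1 CPM, so both libraries labelled Ppm1bCKO were above both others, by a small margin. Its log2 fold change was 0.53 ± 0.28 and did not pass (edgeR adjusted p = 0.717). Ighv12-3 stood at 0.188, 0.895, 1.14 and 1.10 CPM, from 5, 27, 26 and 26 counts (1.02 ± 0.66, edgeR adjusted p = 0.721). Ighv11-2 and Ighv12-3 are best known from B-1a cells, where they encode antibodies that bind phosphatidylcholine. Ighv11-1, which is 98.7% identical to Ighv11-2, had 9 counts in all. Ighv5-2 and Ighv2-6-8, the other segments with a positive value, had log2 fold changes of 0.66 ± 0.60 and 0.23 ± 0.50 (edgeR adjusted p = 0.756 and 0.894). Their genotypes overlapped, and each turned negative without 1 library, Ighv5-2 without Ppm1bCKO replicate 1 (-0.45) and Ighv2-6-8 without Ppm1bfl/fl replicate 1 (-0.37).

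Ighv1-80, singled out after its values were seen, stood at 59.9, 53.9, 39.5 and 50.4 CPM. Both libraries labelled Ppm1bCKO were lower than both others, but the log2 fold change was only -0.34 ± 0.18 (edgeR adjusted p = 0.717). Ighv10-1 stood at 35.5, 31.9, 23.3 and 23.0 CPM (-0.54 ± 0.18, edgeR adjusted p = 0.645) and passed without Ppm1bCKO replicate 1 (edgeR adjusted p = 0.0351), the fit in which calls were common. Ighv5-4 had 1 library far above the rest, at 128, 34.5, 10.1 and 6.87 CPM. Its log2 fold change of -3.26 ± 0.74 did not pass (edgeR adjusted p = 0.535), and it passed without Ppm1bfl/fl replicate 1 (-2.03, edgeR adjusted p = 3.1e-06) or replicate 2 (-3.92, edgeR adjusted p = 5.21e-28).

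Grouped by subgroup, the largest families held similar shares of all Ighv counts in both genotypes. Subgroup 1, with 50 of the 98 segments, held 59.6%, 65.1%, 61.6% and 57.1% of Ighv counts. The genotypes overlapped, and the difference of means, -3.02 percentage points, was within the spread of libraries (two-sided exact permutation p = 0.667). Of its 49 tested segments 19 fell (0.311% of all tested genes were called lower). The log2 fold change was negative in all 49 (50.4% of all tested genes), and its median was -2.12. Among these are Ighv1-23, Ighv1-43, Ighv1-62-3 and Ighv1-67, which reached the minimum through Ppm1bfl/fl only. Subgroup 9, with 4 segments, held 6.12%, 6.33%, 6.31% and 6.56%, and subgroup 3, with 6, held 6.16%, 5.88%, 5.28% and 6.76%. Subgroup 2, with 8 segments of which 3 fell, held 5.34%, 5.32%, 5.10% and 6.91%. Subgroup 5, with 9 of which 2 fell, held 10.1%, 5.65%, 6.59% and 6.16%, and its higher first value included 2.96% from Ighv5-4. In each of these the genotypes overlapped, as they did in subgroups 4, 6, 7, 8, 13 and 15, which held 3.63% or less.

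The shares of subgroups 10, 11, 12 and 14 were higher in both libraries labelled Ppm1bCKO than in both others. Subgroup 11, which is Ighv11-2 alone among the members, held 0.268% (95% Wilson interval 0.240 to 0.300) and 0.226% (0.198 to 0.258) in Ppm1bfl/fl. In the libraries labelled Ppm1bCKO it held 1.19% (1.07 to 1.32) and 1.19% (1.07 to 1.34), a mean 4.82-fold higher. The counting intervals of the libraries of a genotype overlapped, though each Ppm1bfl/fl share lay outside the interval of the other. The genotypes lay far apart, while the level itself did not pass the test above. Subgroup 12, Ighv12-3 alone, held 0.0043%, 0.028%, 0.0896% and 0.108%. In subgroups 10 and 14 the share was higher while the summed level was lower in both libraries labelled Ppm1bCKO. Subgroup 10, with Ighv10-1 and Ighv10-3, stood at 53.0, 49.9, 30.0 and 29.4 CPM and held 1.22%, 1.56%, 2.35% and 2.91%. Its Ighv10-3 was called lower (edgeR adjusted p = 0.0388). Subgroup 14, with 4 segments, stood at 153, 123, 53.7 and 44.5 CPM and held 3.53%, 3.86%, 4.21% and 4.39%. Each exact permutation p over libraries was 0.333, the smallest possible, and a p of 1 after adjustment over 15 subgroups.

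**Figure D2:**
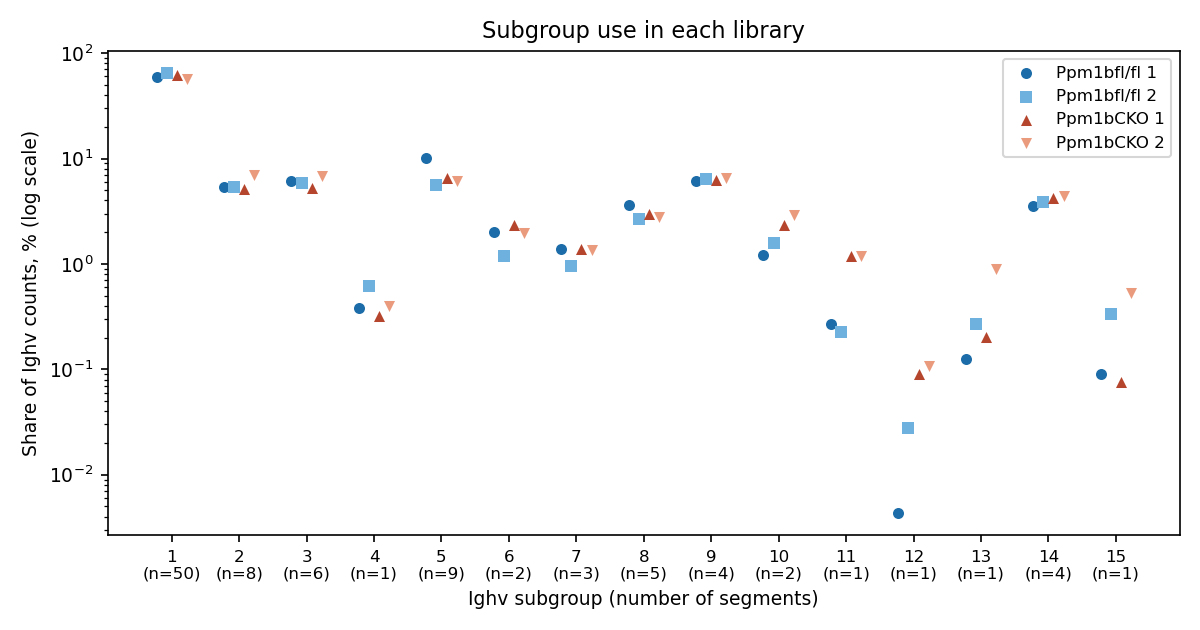
Share of Ighv counts held by each of the 15 subgroups (x axis, with the number of segments) in each library (y axis, percent, log scale), with 1 point per library. Subgroup 1 stands at 57.1% to 65.1% in all libraries, and subgroups 10, 11, 12 and 14 are higher in both libraries labelled Ppm1bCKO.

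Segments that fell lay along the whole locus. Distance was measured from the D segments, whose outer end lies at 113526809, and the members lie 51.7 to 2473 kb away. Ranked by distance, the nearest 33 segments held 27.1%, 23.5%, 24.5% and 27.2% of Ighv counts. The middle 33 held 30.5%, 34.5%, 33.3% and 31.9%, and the farthest 32 held 42.4%, 42.0%, 42.2% and 40.9%. The genotypes overlapped in each of these 3 classes. The farthest class differed by -0.67 percentage points, with a two-sided exact permutation p of 0.667. Summed CPM was 3.27-fold, 3.23-fold and 3.34-fold higher in Ppm1bfl/fl in the nearest, middle and farthest classes.

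Calls by position followed the same picture. Of the tested segments, 8 of 33 were called among the nearest, 10 of 31 in the middle and 12 of 32 among the farthest. Over all tested genes 0.311% were called lower. Median log2 fold changes were -1.83, -1.83 and -1.95. In windows of 500 kb outward, 6 of 22, 5 of 22, 7 of 20, 3 of 16 and 9 of 16 tested segments fell. The outermost window, between 2000 and 2500 kb, held 25.1%, 23.8%, 23.2% and 22.9% of Ighv counts, without overlap of the genotypes (two-sided exact permutation p = 0.333, the smallest possible). Shares of the other windows overlapped. All 16 segments of the outermost window had both libraries labelled Ppm1bCKO below both others, where 20.6% of all tested genes did. Of these segments Ighv1-67 reached the minimum through Ppm1bfl/fl only. Across 96 segments distance and log2 fold change had a Spearman rho of -0.14, and across 98 segments distance and level per kb one of 0.16, both given as descriptions.

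**Figure D3:**
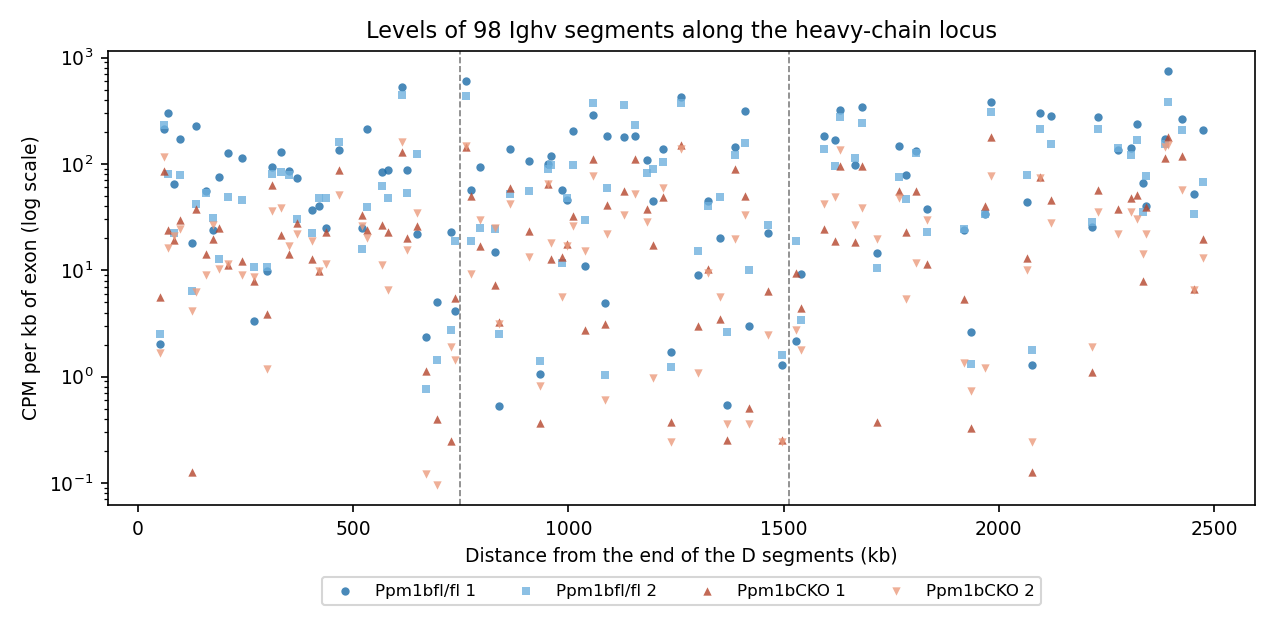
Level of each of the 98 segments in each library (y axis, CPM per kb of exon, log scale) against distance from the D segments (x axis, kb), with dashed lines between the nearest 33, middle 33 and farthest 32. Ppm1bfl/fl libraries (blue) lie above those labelled Ppm1bCKO (red) for most segments from 51.7 to 2473 kb.

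Segment use was about as even in every library. The effective number of segments, the exponential of the Shannon entropy of Ighv counts, was 57.2, 57.0, 56.4 and 53.2 of a possible 98. Both libraries labelled Ppm1bCKO were below both Ppm1bfl/fl libraries, replicate 1 by a small margin. They were lower by 2.29 on average, and replicate 2 made most of that difference, since without it the difference was -0.71. The 5 most abundant segments of each library held 22.2%, 22.1%, 22.3% and 25.7% of Ighv counts, so that replicate 2 labelled Ppm1bCKO alone stood above the others. Without it the difference of means was 0.14 percentage points, where with it the difference was 1.84. Both measures had a two-sided exact permutation p of 0.333, the smallest possible. Coverage was as close, with 17, 15, 15 and 14 segments holding 50% of Ighv counts and 51, 53, 52 and 51 holding 90%. Every segment had at least 1 count in every library. At an equal depth of 24026 Ighv counts, 97.1, 97.8 and 97.5 segments would be expected in the first 3 libraries. That depth is the whole Ighv count of Ppm1bCKO replicate 2, whose value is 98 by construction.

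No single segment dominated a library. The most abundant one by counts was Ighv1-81 in Ppm1bfl/fl replicate 1 (6.01% of Ighv counts) and Ighv9-3 in replicate 2 (4.92%). It was Ighv1-64 (5.69%) and Ighv9-3 (5.63%) in replicates 1 and 2 labelled Ppm1bCKO. Kappa light-chain variable segments, which belong to the partner chain, numbered 93 with 15 or more counts. Their effective numbers were 54.1, 57.1, 53.1 and 52.4, lower in both libraries labelled Ppm1bCKO than in both others. Their summed level was also lower in the libraries labelled Ppm1bCKO, at 4888, 3053, 1268 and 1389 CPM. Of 91 tested kappa segments edgeR called 17 lower and 0 higher (0.311% and 0.061% of all tested genes), and their median log2 fold change was -1.58.

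**Figure D4:**
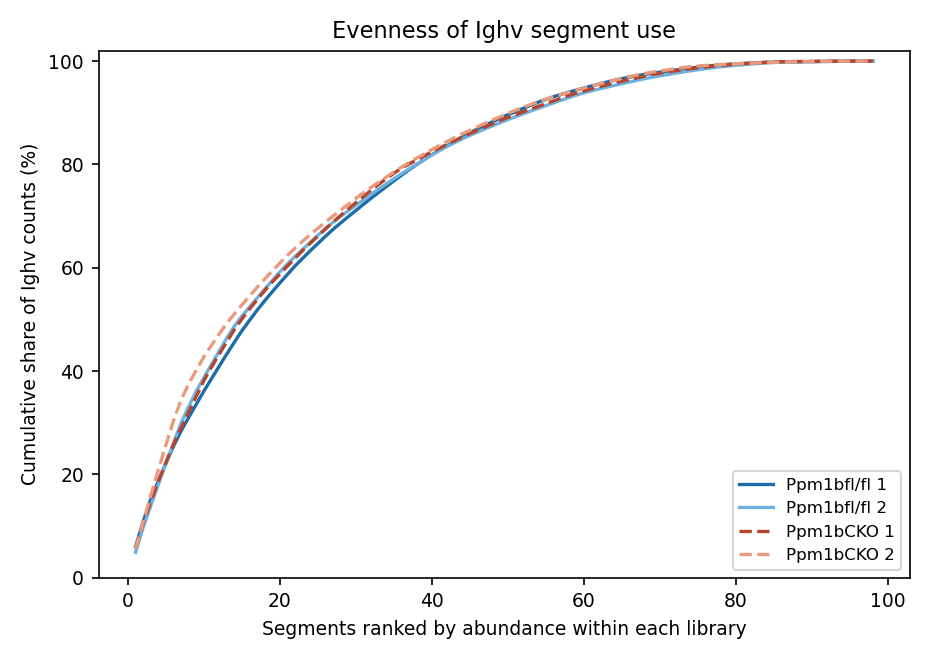
Cumulative share of Ighv counts (y axis, percent) over segments ranked by abundance within each library (x axis), with 1 line per library. The lines lie close together, and that of Ppm1bCKO replicate 2 is the highest at 5 segments, at 25.7% against 22.1% to 22.3%.

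Individual segments varied more between libraries than subgroups did, within a genotype as well as across. Shares of the 98 segments had a Spearman rho of 0.881 between the Ppm1bfl/fl libraries, 0.834 between those labelled Ppm1bCKO, and 0.799 to 0.857 across genotypes, given as descriptions. Shares differed over 2-fold for 31 segments between the Ppm1bfl/fl libraries, for 35 between those labelled Ppm1bCKO, and for 35 to 41 across genotypes. Chi-square per degree of freedom over the segments was 129 and 40.2 within the genotypes, well above the sampling noise, so no pair of libraries was the same library deposited again. The widest differences between libraries of a genotype, in segments chosen after their values were seen, were in Ighv1-56, Ighv1-63 and Ighv1-49. Ighv1-56 held 0.118%, 0.114%, 0.0103% and 0.683% of Ighv counts. Ighv1-63 held 0.272%, 0.375%, 1.11% and 0.0416%, the opposite order within the libraries labelled Ppm1bCKO. Ighv1-49 held 0.0174%, 0.209%, 0.259% and 0.0957%.

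Between genotypes, the mean share stayed within 2-fold for 71 segments, was over 2-fold higher in the libraries labelled Ppm1bCKO for 12 and over 2-fold lower for 15. Over all 98 segments, 17 had both shares above both others and 27 had both below. Among the 12 and the 15, which the size of the difference had already selected, these numbers were 8 and 10. In CPM 20.6% of all tested genes lay apart in each direction, and no such rate was made for shares. Ighv1-80 held a higher share, at 1.38%, 1.69%, 3.10% and 4.98%, and Ighv10-1 likewise, at 0.821%, 1.00%, 1.82% and 2.27%. Ighv1-71 held a lower share, at 0.214%, 0.320%, 0.0310% and 0.0666%. Such shares were not tested segment by segment, and a share can be higher where the level is lower, as for Ighv1-80.

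**Figure D5:**
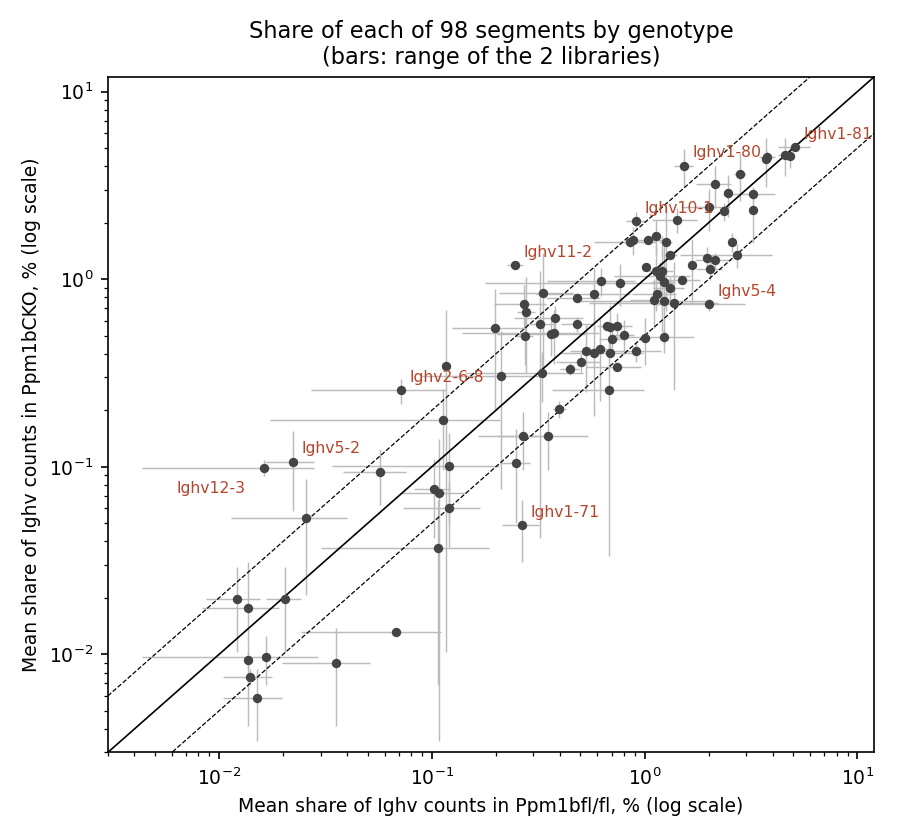
Mean share of Ighv counts of each of the 98 segments in Ppm1bfl/fl (x axis, percent, log scale) against that in the libraries labelled Ppm1bCKO (y axis, percent, log scale). Bars span the 2 libraries, the solid line is equality and the dashed lines a 2-fold difference. Most points (71) lie within 2-fold, with Ighv11-2 at 0.247% against 1.19% and Ighv1-71 on the other side.

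The transcripts that carry these segments end in constant genes, and their makeup differed between the genotypes. Ighm, the constant region of IgM, made up 7.62%, 7.19%, 26.0% and 33.6% of heavy constant counts, and Igha, that of IgA, 71.1%, 66.3%, 44.8% and 38.6%. Neither share overlapped between genotypes (two-sided exact permutation p = 0.333, the smallest possible). In CPM, Igha stood at 10296, 6227, 1628 and 1868, without overlap, and Ighm at 1103, 676, 944 and 1627, with overlap. Igha fell by 2.24 ± 0.30 in log2 units (edgeR adjusted p = 0.0225), and Ighm was at 0.53 ± 0.32 (edgeR adjusted p = 0.717). Ighv counts per 100 heavy constant counts were 29.9, 34.0, 35.1 and 20.9, with overlap of the genotypes.

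Marker genes of the cells that use these segments differed in direction, and their part in the results above was not tested. Among 16 plasma cell markers edgeR called 0, with 4 lower and 1 higher at an unadjusted p at or under 0.05, and DESeq2 called 2 lower and limma-voom 0. Of them 11 were negative and 5 positive, with a median log2 fold change of -0.13. Their summed level, Jchain included, was 3010 to 4032 CPM in Ppm1bfl/fl and 2176 to 2620 in the libraries labelled Ppm1bCKO. Between genotype means Jchain fell by more than this sum did, so without Jchain the sum did not fall. The largest part of the sum without Jchain was Ly6c2 in every library, at 653, 837, 892 and 1023 CPM. Jchain, which joins IgA and IgM units, stood at 2448, 1377, 463 and 624 CPM (-1.82 ± 0.30, edgeR adjusted p = 0.0638). Prdm1, a transcription factor that drives plasma cell formation, was at -0.94 ± 0.24 in log2 units (edgeR adjusted p = 0.366). Derl3 was at -1.32 ± 0.28 (edgeR adjusted p = 0.194) and Tnfrsf17 at -1.16 ± 0.41 (edgeR adjusted p = 0.704). With Jchain and Prdm1, they were the markers of this list lower at the unadjusted threshold. Irf4, the 1 marker of this list higher at the unadjusted threshold, was at 0.62 ± 0.20 (edgeR adjusted p = 0.619). Xbp1 was at -0.01 ± 0.18 (edgeR adjusted p = 0.985). Among 15 B cell markers edgeR called 0, with 11 higher at an unadjusted p at or under 0.05, and DESeq2 called 6 higher and limma-voom 0. All 15 were positive, with a median of 1.01. Pax5, with the smallest p of this list, stood at 35.1, 42.8, 67.2 and 99.1 CPM, and Cd79b at 38.7, 33.9, 50.7 and 131. Cd74 stood at 282, 281, 230 and 366 CPM, with overlap of the genotypes. In each of these, replicate 2 labelled Ppm1bCKO stood well above replicate 1. The summed level of the 15 markers, Ighm included, was 1195 to 1617 CPM in Ppm1bfl/fl and 1522 to 2682 in the libraries labelled Ppm1bCKO. Ighm was the largest part of this sum in every library, and its own level overlapped between genotypes.

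Early B-lineage markers were also listed, because germline V transcripts are made there. Of 12 pro-B and pre-B cell markers 9 were positive and 3 negative, with a median of 0.59, and edgeR called 0 (6 higher at an unadjusted p at or under 0.05, and 0 by DESeq2 and limma-voom). Their summed level was 298, 246, 310 and 359 CPM, higher in both libraries labelled Ppm1bCKO than in both others, by a small margin in replicate 1. Sox4 was the largest part of this sum in every library, at 112, 84.4, 111 and 117 CPM, with overlap of the genotypes. Of the 11 LSK markers 9 were negative and 2 positive, with a median of -0.20, and edgeR called 0 (0 at an unadjusted p at or under 0.05, and 0 by DESeq2 and limma-voom). None of the markers in these lists was at 0 in all libraries. Of 9 markers of other mature marrow cells edgeR called 0, with 2 higher at an unadjusted p at or under 0.05, and DESeq2 called 2 higher and limma-voom 0.

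At the lower edge of the family the counts were too few to describe. Just inside the minimum, by total count, were Ighv8-4 (33 counts), Ighv1-23 (34) and Ighv1-67 (34). Just outside it were Ighv8-6 (14), Ighv8-11 (10) and Ighv11-1 (9). Ighv8-2 and Ighv1-37, which reached the minimum, did not pass the filter on low counts and were not tested. Because 9 segments reached the minimum through the Ppm1bfl/fl libraries alone, a lower count in the libraries labelled Ppm1bCKO was favoured for them by the choice.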

How the data were processed

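Per the labels' protocols, TRIzol was used for total RNA of pre-sorted cells and a TruSeq RNA kit for the libraries. The authors deposited 1 table of raw counts per gene for 4 libraries. Per the submitters' processing notes, the tools were featureCounts 2.0.1, HISAT2 2.2.0 and Trim Galore 0.6.7, with build mm10. Strand setting and multi-mapping treatment are not given in the sources used here. Names, biotypes and sequences came from GENCODE release 21 of the same build, which matched 55139 of 55399 genes.

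The test on counts of all genes was that of edgeR 4.0.16 (R 4.3.3; TMM, filterByExpr with a minimum count of 10, robust quasi-likelihood test, no covariates), with p adjusted by the Benjamini-Hochberg method over 16393 genes, at 0.05. The biological coefficient of variation was 19.1%. CPM values are TMM-scaled and log2 fold changes are Ppm1bCKO over Ppm1bfl/fl. Single values per library were compared by exact permutation.

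Members and lists were chosen with earlier results of these data known. Named were Ppm1b, the 12 segments with the highest mean CPM per kb, the most abundant of each library and subgroup, up to 10 called with the smallest p in a direction (the 5 smallest p where under 3 passed), the 3 on either side of the minimum, constant genes, Jchain, and up to 6 genes of each list. Alternatives were DESeq2 1.42.0, its size factors, limma-voom (limma 3.58.1), other filters, TMM without immunoglobulin genes, a replicate block, other evenness and position measures, and each library left out.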

Additional observations from a re-analysis of the deposited data

How the results depend on the processing

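The number of segments called lower depended on the processing, and no alternative called one higher. Against 30 segments called lower, DESeq2 called 52, edgeR without a low-count filter 60 and edgeR with the replicate number as a block 55, and leaving out 1 library gave 27 to 64. Over all genes, against 51 lower and 10 higher, DESeq2 called 132 and 67, edgeR without the filter 181 and 130, and the block 136 and 71. Leaving out 1 library gave 63 to 1583 lower and 31 to 1753 higher, the highest without Ppm1bCKO replicate 1. In each of these, and with DESeq2 size factors (31), limma-voom (24), a minimum of 1 CPM (28) and TMM without immunoglobulin genes (29), 0 were called higher. Over all genes, DESeq2 size factors called 52 lower and 10 higher, and limma-voom 43 and 8. The minimum of 1 CPM called 47 and 8, and TMM without immunoglobulin genes 50 and 10. Same-numbered libraries did not deviate together (r = 0.0641 over 16393 genes), so the replicate numbers were not taken as a pairing. With a single library in a group the spread is borrowed from the other genotype, and that library is assumed to vary like it.

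Ppm1b had a log2 fold change of 0.046 to 0.56 over the libraries left out in turn. The difference of -2.29 in effective number became 0.32 when segments expected at equal depth were counted instead, a measure of richness that is fixed at 98 in the shallowest library. The difference of -0.67 percentage points in distal share became -1.90 for the farther 49 segments and -1.79 for the farther part of the locus in bases; the cause was not tested. With 1 library left out, differences ran from -0.330 to -0.207 percentage points in the Ighv share of counts, from -3.87 to -0.71 in effective number, from 0.14 to 3.54 points in the top 5 share, from -1.30 to -0.04 in distal share and from -5.76 to -0.29 in the share of subgroup 1.

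Of 35 named segments 17 were called, and 6 of these lost the call in at least 1 of 11 settings (Ighv7-3, Ighv3-6, Ighv1-15, Ighv1-53, Ighv1-69 and Ighv8-12). Of those not called 10 passed in at least 1 setting. Signs turned with a library left out for Ighv5-2 (-0.45 without Ppm1bCKO replicate 1, up to 1.29 without replicate 2) and Ighv2-6-8 (-0.37 without Ppm1bfl/fl replicate 1, up to 1.30 without replicate 2). They also turned for Ighv13-2, from -1.44 without Ppm1bCKO replicate 2 to 0.11 without Ppm1bfl/fl replicate 2 and 0.35 without Ppm1bCKO replicate 1. Depth limits the members near the minimum, where a library holds a few counts.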

Other observations

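Ighv pseudogenes, which cannot encode a variable domain, were nearly silent. Of 70 in the table, 43 had no count and 5 had 15 or more, and they summed to 347 counts beside 264508 on the 98 segments. Per library they held 81, 165, 54 and 47 counts, in the order Ppm1bfl/fl replicates 1 and 2 and Ppm1bCKO replicates 1 and 2. The most abundant, Ighv1-2, had 116 counts in all, of which 82 were in Ppm1bfl/fl replicate 2. J segments, the short joining exons downstream, summed to 11.2, 8.99, 10.9 and 6.74 CPM, with overlap of the genotypes. Each J segment held 30 to 104 counts in a library.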
